A study of Mus musculus with 4 samples.

Results

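A small population of excitatory nuclei in the mouse hippocampus carried RNA of Atp10b, Dsc3 and Npsr1, and its transcriptome was followed across 4 genotypes of the gene for monoacylglycerol lipase (MAGL). Its members were chosen by a rule on UMIs (unique molecular identifiers, each standing for 1 captured RNA molecule). A barcode had to hold at least 500 detected genes, at least 1 UMI of Slc17a7, at most 1 UMI of Gad1 and Gad2 together, and at least 1 UMI in 3 or more of 7 genes, namely Atp10b, Dsc3, Npsr1, Mamdc2, Ddit4l, Igfbp7 and Gcnt4. In all, 813 of 60288 deposited barcodes were members. They made up 2.45% of the 33130 barcodes that met the excitatory part of the rule, and the remaining 32317 are called the other excitatory nuclei here.

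Single-nucleus RNA was counted in 4 libraries of hippocampus, 1 for each genotype. The genotypes were wild type, a total (global) knockout of MAGL, an astrocyte-specific knockout and a neuron-specific knockout, and the wild-type library was the control for every comparison. Mgll encodes MAGL, which hydrolyses the endocannabinoid 2-arachidonoylglycerol (2-AG). The promoter or Cre line behind the cell-type knockouts, the deleted part of Mgll, and the age, sex and number of the animals are not stated in the labels. With 1 library per genotype there was no replicate, so no difference was put to a statistical test, and each interval below is a 95% interval that covers counting error only.

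Excitatory neurons of the forebrain load glutamate into vesicles with the transporter encoded by Slc17a7, and their regional classes are usually told apart by transcription factors and adhesion molecules. The 7 genes of the rule act in unrelated ways. Npsr1 encodes the receptor of neuropeptide S, a peptide linked to arousal and anxiety. Atp10b encodes a P4-type ATPase that flips lipids across endosomal and lysosomal membranes, and Dsc3 a desmosomal cadherin best known from skin. Mamdc2 encodes a secreted proteoglycan, Ddit4l an inhibitor of mTOR signalling, Igfbp7 a secreted growth factor binding protein and Gcnt4 a glycosyltransferase of the Golgi apparatus.

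The libraries held 9369 (wild type), 31243 (total knockout), 10731 (astrocyte knockout) and 8945 (neuron knockout) barcodes, with between 81623644 and 193307038 UMIs. The members numbered 188, 297, 134 and 194 in that order and carried 2055344, 2440425, 1242841 and 1878072 UMIs in sum. Their median depth was 9747.5, 7008, 7383 and 8785 UMIs per nucleus, and that of the other excitatory nuclei was 10178.5, 6651.5, 8224 and 9198.5. Any 2 libraries shared between 108 and 466 barcode sequences, but no member barcode occurred in 2 libraries. The total knockout library stood apart in 2 ways. Xist RNA, made from the inactive X chromosome of females, was seen in 0.337% of its members against 59.0%, 49.3% and 49.5% in the wild-type, astrocyte and neuron knockout libraries. Scrublet, a doublet caller, marked 40.1% of its members as doublets against 12.2%, 20.9% and 3.61%. For the other excitatory nuclei the shares were 26.6% in the total knockout against 4.11%, 6.74% and 1.59%. The expected rate given to Scrublet rose with the number of barcodes in a library. Genotype cannot be told apart from the sex of the animals in the total knockout as a whole, so values from male nuclei alone are given for the genes that turn on it. Male nuclei are those with a UMI of a Y-linked gene and none of Xist. They numbered 72, 252, 50 and 92 of the members in wild type, total, astrocyte and neuron knockout. The part of depth and doublets in this choice was not tested.

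The rule genes themselves were measured first, as the values that chose the members. Levels are given as CPM, the UMIs of a gene per 1000000 UMIs summed over the nuclei of a class, and CPM of different genes are not corrected for gene length. Npsr1 stood at 273, 318, 255 and 284 CPM in the members of the wild-type, total, astrocyte and neuron knockout libraries, against 23.8 CPM in the other excitatory nuclei of the 4 libraries pooled. These values follow from the rule, so no comparison of libraries is drawn from them. Atp10b, which lies on chromosome 11 at 43149877 to 43262285 (mm10), stood at 119, 164, 134 and 126 CPM in the same order against 3.40 CPM outside, and Dsc3 at 44.8, 56.1, 49.1 and 50.1 against 2.08. Mamdc2 ranged from 82.9 to 116 CPM over the libraries, Ddit4l from 56.6 to 75.6, Igfbp7 from 60.4 to 68.7 and Gcnt4 from 42.2 to 55.4, with at most 7.65 CPM outside for any of them. The share of members with a UMI was largest for Npsr1 (59.4%), Mamdc2 (58.3%) and Atp10b (57.9%) and smallest for Gcnt4 (35.8%). None of the 7 was thus seen in every member.

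Most members met the rule narrowly: 537 held UMIs of 3 rule genes, 212 of 4, 57 of 5, 7 of 6 and 0 of all 7. Just outside, 1274 excitatory nuclei held exactly 2. Npsr1 stood at 175 CPM in those with 2 and at 247 CPM in those with 3, and Atp10b at 43.8 and 127 CPM. Over all excitatory nuclei, each rule gene was seen more often where another was seen. For example, an Npsr1 UMI was found in 36.5% of nuclei with Atp10b and in 4.90% of those without, and the share of nuclei with Dsc3 was 9.68-fold higher where Atp10b was present, the largest ratio of all 42 ordered pairs. The lowest ratio was 3.08-fold, for Npsr1 given Igfbp7. The 7 genes were picked with earlier results of these data known. These ratios, and the values in inhibitory barcodes below, thus describe that choice and lend it no support. Deeper nuclei hold more of any gene, and the part of depth in these ratios was not tested. Of 8063 inhibitory barcodes (at least 2 UMIs of Gad1 and Gad2 and none of Slc17a7), 24 (0.298%) held 3 or more rule genes. The median depth of all inhibitory barcodes lay between 6082 and 9521 UMIs in the 4 libraries. The highest level of any rule gene there was 10.5 CPM, for Npsr1 in the total knockout library.

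The members were then placed among all excitatory nuclei by a clustering that left the 7 rule genes out. Of 49 clusters, 1 (cluster 5, with 2019 nuclei) took 564 of the 813 members, or 69.4%. By library it held 77.7% of the members in wild type, 55.6% in the total knockout, 66.4% in the astrocyte knockout and 84.5% in the neuron knockout. Its leading genes were Gpc6, Atp10b, Npsr1, Pdzrn3, Sgcz, Gm49906, Cux2, Gabrg1, Lama4 and Cdh20. Of these, Atp10b and Npsr1 are rule genes, and the cluster was picked as the one with the most members, so their rank follows from the choice. Only 27.9% of its nuclei were members. Its other nuclei had similar levels of some genes outside the rule: pooled over libraries, Gpc6 stood at 2809 CPM in members inside the cluster and at 2744 CPM in its non-members, Cux2 at 323 and 304, Tshz2 at 2280 and 2392. Other genes were higher in the members, with Dsc2 at 20.6 and 10.2 CPM and Cdcp1 at 14.2 and 9.01. The rule thus took a minority of the cluster, and these nuclei are called by their leading genes here, with no anatomical name.

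The share of excitatory nuclei in cluster 5 climbed with the number of rule genes seen, from 1.08% with 0 through 13.9% with 1 and 45.3% with 2 to 67.4% with 3 and 73.6% with 4. It was 71.9% of 57 nuclei with 5 and 71.4% of 7 with 6, so the climb ended at 4. Levels of genes outside the rule went the same way. Gpc6 stood at 130 CPM in nuclei with 0 rule genes, 505 with 1, 1318 with 2, 2109 with 3 and 2211 with 4 or more. Slc17a6, the vesicular glutamate transporter of many subcortical neurons, went from 13.0 to 107 CPM over the same steps, and Cux2, a homeobox factor, from 24.1 to 257. Prox1, the transcription factor that defines dentate granule cells, went from 73.1 down to 8.7 CPM.

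**Figure D1:**
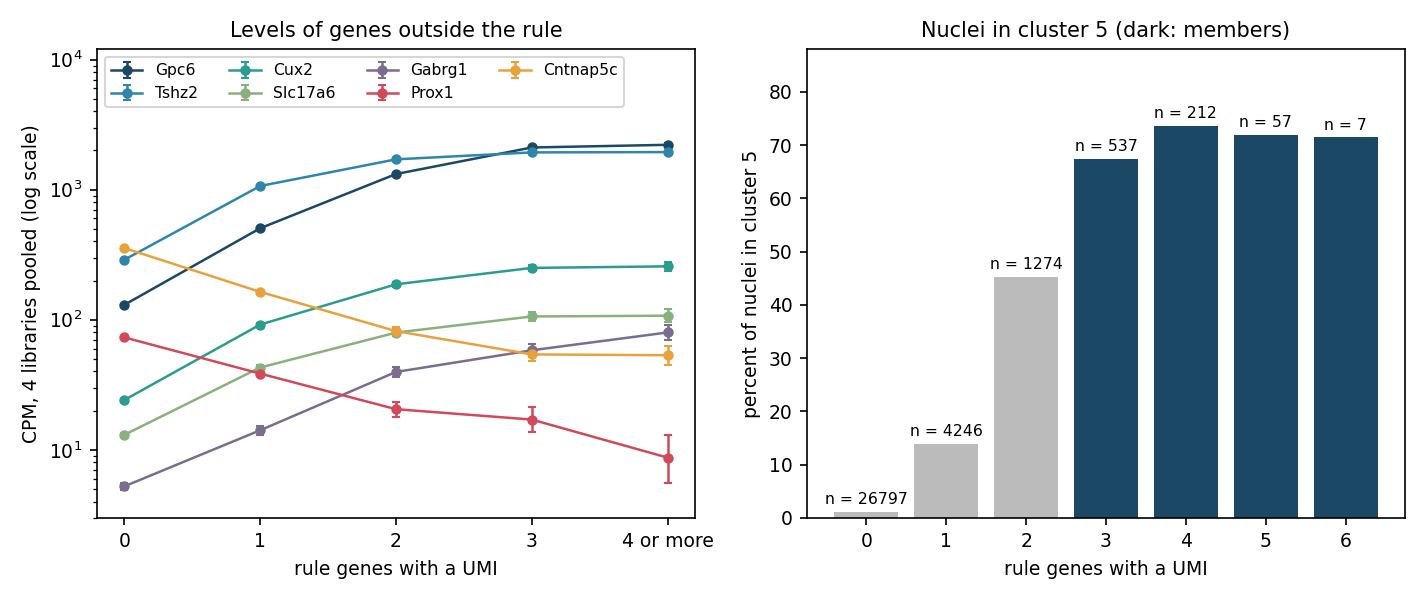
Left, CPM (log scale, 4 libraries pooled, bars are 95% Poisson intervals) of 7 genes outside the rule against the number of rule genes with a UMI. Right, percent of nuclei in cluster 5 against the same number, with members in dark blue. Gpc6 climbs from 130 to 2211 CPM, Prox1 declines from 73.1 to 8.7 CPM, and the share in cluster 5 goes from 1.08% to 73.6% at 4 genes and is 71.4% at 6. Cluster 5 was picked for holding the most members, and Gpc6, Cux2, Gabrg1 and Cntnap5c are among the genes with the highest or lowest ratios in members.

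The 249 members outside cluster 5 differed from those inside. Scrublet marked 69.5% of them as doublets, against 1.19% of the nuclei in cluster 5 as a whole. By library the doublet share of members outside was 52.4% in wild type, 87.9% in the total knockout, 62.2% in the astrocyte knockout and 23.3% in the neuron knockout. The largest groups of them lay in clusters 10 and 32, with 44 members each, and in clusters 31 (37 members), 23 (23 members) and 46 (20 members). Of these, cluster 10 was led by Cdc14a, Wfs1 and Prlr and had 9.41% doublets. Clusters 32, 31, 23 and 46 had between 83.3% and 97.3%, and cluster 23 was led by oligodendrocyte genes such as Mag, Mobp and Mog. Members outside cluster 5 also held more RNA of some genes than those inside: Prox1 stood at 32.0 CPM outside and 0.687 inside, Dcc at 1286 and 41.2, and Bcl11b at 102 and 3.21. Differences described below are set beside their values in cluster 5 where the comparison turns on it. Such values cover all nuclei of the cluster, non-members included, unless members inside it are named.

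**Figure D2:**
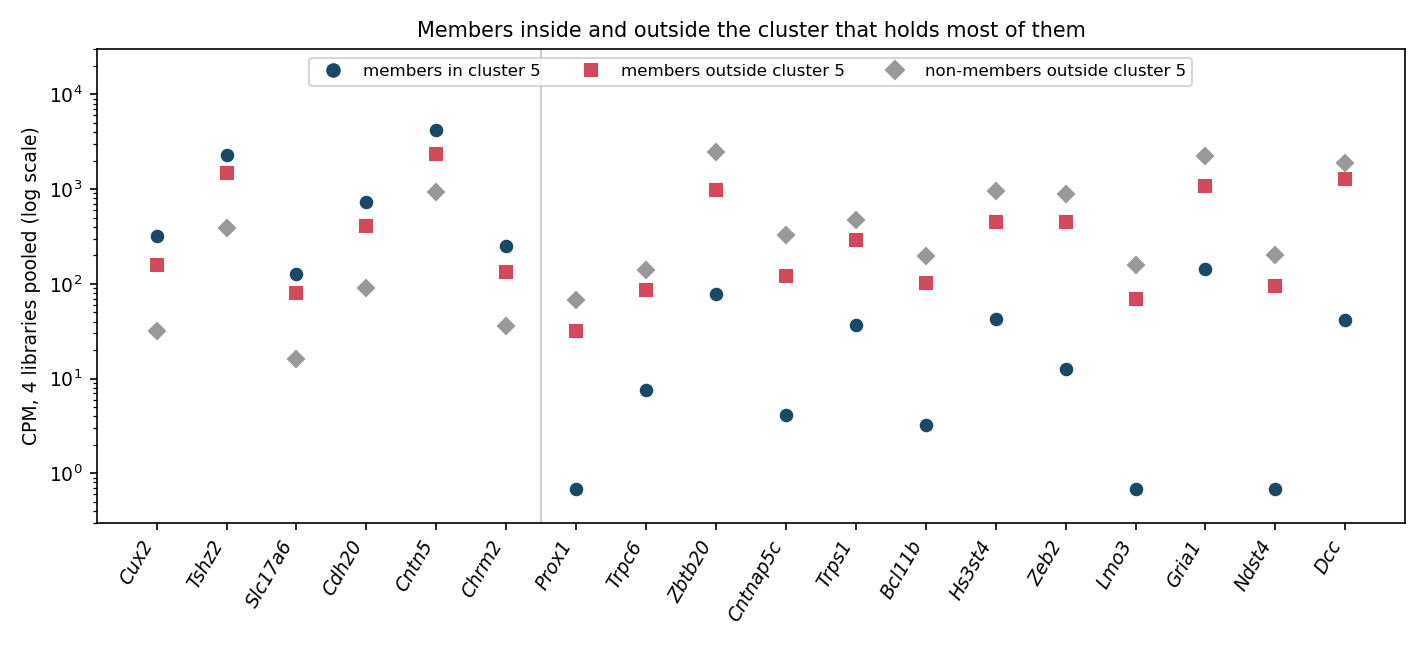
Pooled CPM (log scale) of named genes in members inside cluster 5 (circles), members outside it (squares) and excitatory non-members outside it (diamonds). In the 12 genes to the right of the line, such as Prox1 (0.687, 32.0 and 68.3 CPM), members outside lie between the other groups.

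The share of excitatory nuclei that were members was 3.23% (2.79% to 3.71%) in wild type, 2.00% (1.78% to 2.24%) in the total knockout, 1.92% (1.61% to 2.27%) in the astrocyte knockout and 3.55% (3.08% to 4.08%) in the neuron knockout. The wild-type and neuron knockout intervals overlapped each other, and so did those of the total and astrocyte knockouts, with a gap between the pairs. Since detection of 3 genes depends on depth, nuclei were also thinned to 5000 UMIs each, which left out 19.2%, 43.5%, 19.8% and 17.5% of the barcodes as shallower. The shares were then 1.51% (1.17% to 1.92%), 1.16% (0.949% to 1.40%), 0.971% (0.719% to 1.28%) and 1.63% (1.25% to 2.09%), in the same order of libraries. Every interval overlapped each of the others, so the gap between the pairs was not kept. At 2000 UMIs only 40 members were left, and the share was lowest in wild type (0.148%) and highest in the total knockout (0.289%). Cluster 5, which needs no rule gene, held 6.95% (6.31% to 7.63%) of excitatory nuclei in wild type and 4.80% (4.46% to 5.16%) in the total knockout. It held 5.55% (5.02% to 6.11%) in the astrocyte knockout and 9.39% (8.63% to 10.2%) in the neuron knockout. There the total and astrocyte knockout intervals overlapped each other and lay below that of wild type. The neuron knockout interval lay above that of wild type. With called doublets removed, the total knockout share of members was 1.64%.

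**Figure D3:**
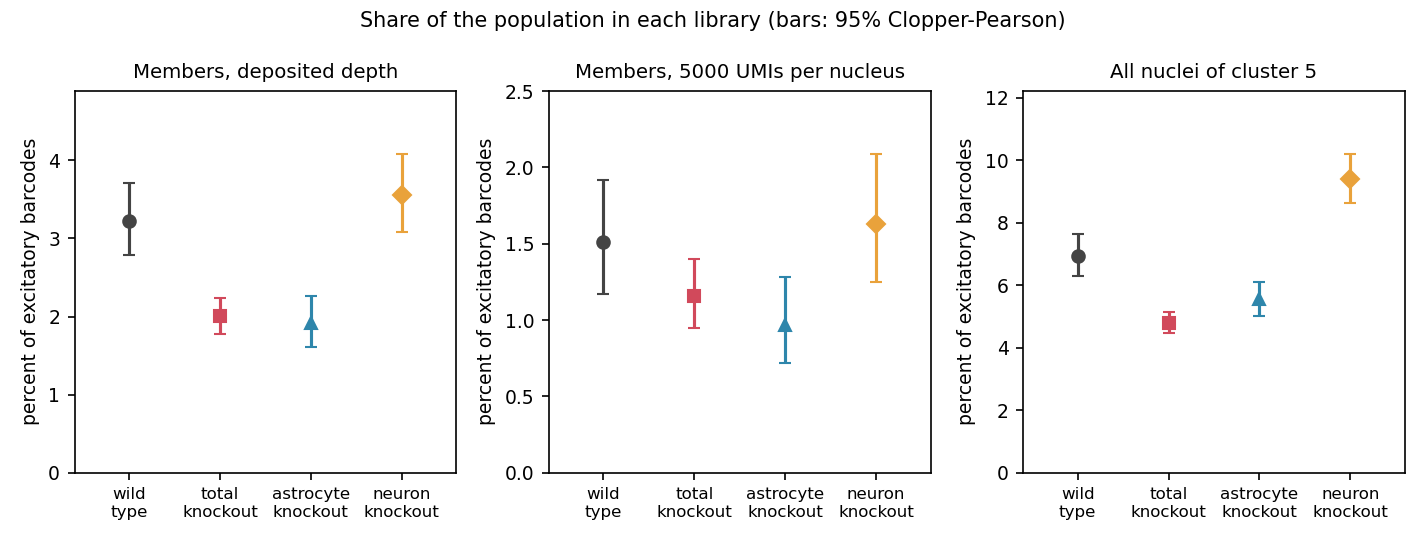
Percent of excitatory barcodes, with 95% Clopper-Pearson intervals, that were members at the deposited depth (left), members after thinning to 5000 UMIs per nucleus (middle), or in cluster 5 (right); each vertical axis starts at 0 and has its own scale. The total and astrocyte knockouts lie lowest in every panel, at 2.00% and 1.92% on the left and 4.80% and 5.55% on the right.

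Next, each gene was compared between members and other excitatory nuclei inside each library. Of 9257 genes compared, 205 (2.21%) were at least 2-fold higher in members in all 4 libraries and 221 (2.39%) at least 2-fold lower. The members had been chosen on the same nuclei, so these counts describe the population and were not tested. The median log2 ratio over all genes compared lay between -0.05 and -0.01 in the 4 libraries. Within cluster 5, members differed more: against other excitatory nuclei outside the cluster, 327 of 9329 genes (3.51%) were higher and 479 (5.13%) lower.

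The 25 genes outside the rule with the highest ratios included Gpc6, Lama4, Bmper, Mgp and Cdcp1. Gpc6, a heparan sulfate proteoglycan that promotes synapse formation when released by astrocytes, stood at 2344, 1917, 1835 and 2432 CPM in members and at 222, 252, 187 and 247 CPM in the other excitatory nuclei (wild type, total, astrocyte and neuron knockout). Its log2 ratio lay between 2.93 and 3.40 over the libraries. Lama4, a laminin chain, stood at 75.9, 62.7, 31.4 and 87.9 CPM against 14.4, 12.1, 3.58 and 12.5. Lama4 was lowest in the astrocyte knockout in both classes. Bmper, a secreted regulator of BMP signalling, ranged from 113 to 169 CPM against 20.0 to 30.0, and Mgp, a matrix inhibitor of calcification, from 16.8 to 27.2 against 2.51 to 3.46. Cdcp1, a transmembrane protein of epithelia, had the highest ratio of the genes outside the rule, with 9.73 to 10.7 CPM in members against at most 0.863.

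Also among the 25 were Cux2, Pdzrn3, Rmst, Gabrg1 and Tacr3. Cux2, a homeobox factor of upper-layer cortical neurons, stood at 285, 216, 228 and 282 CPM against 44.5, 43.9, 29.5 and 39.9. Pdzrn3, an E3 ubiquitin ligase, ranged from 694 to 908 CPM against 78.5 to 167. Rmst, a long non-coding RNA of neural differentiation, was even across libraries at 508, 543, 512 and 523 CPM against 69.2 to 121. Gabrg1, a GABA-A receptor subunit that is rare in cortical neurons, stood at 72.5, 54.1, 68.4 and 73.0 CPM against 6.09 to 9.22. Tacr3, the receptor of neurokinin B, stood at 27.2, 27.5, 24.9 and 27.2 CPM against 4.39 to 6.03. Nxph2, Syk, Fgd2, Lemd1, Phldb2, Prrg1, Bglap3, Dsc2 and 6 long non-coding or unannotated transcripts filled most of the list. Of the transcripts, Gm12146 is antisense to Atp10b (chromosome 11, 43197424 to 43259784). Whether the counting used strand is not stated in the labels, so its 9.66 to 14.1 CPM cannot be separated from Atp10b. Gm49906 was not found in GENCODE release M21, which gave the positions.

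**Figure D4:**
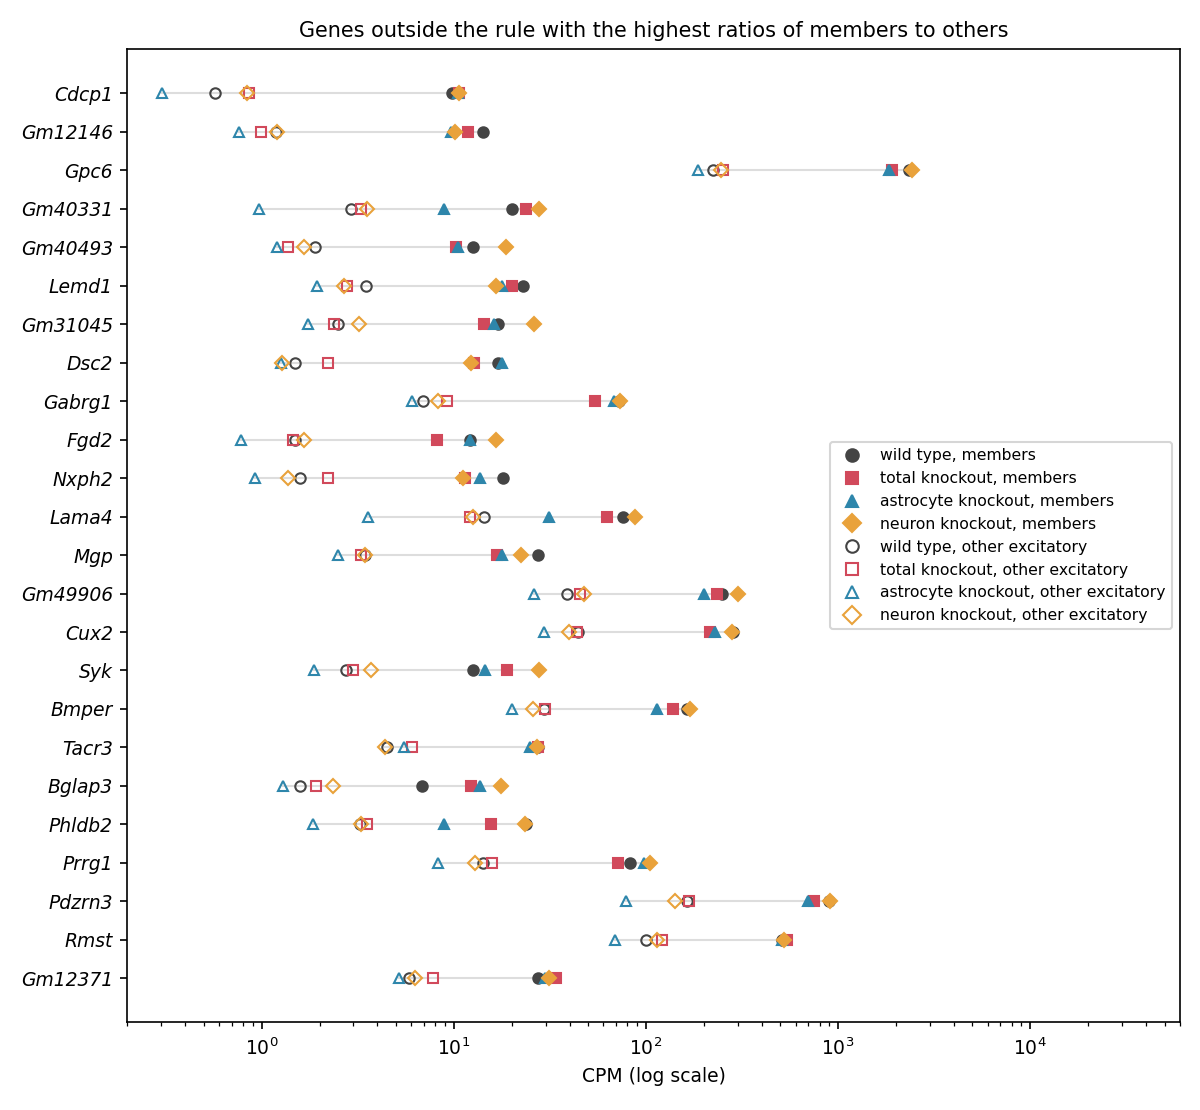
CPM (log scale) in members (filled) and other excitatory nuclei (open) of each library for genes among the 25 outside the rule with the highest ratios, ranked from the top by the library with the weakest ratio. For each gene shown, the 4 filled points lie to the right of the 4 open ones, as for Gpc6 at 1835 to 2432 against 187 to 252 CPM.

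The 10 genes with the lowest ratios included Cntnap5c, a neurexin-like adhesion gene, at 53.5, 65.6, 89.3 and 15.4 CPM in members against 266, 296, 416 and 308. The neuron knockout was the lowest library for this gene, and Cntnap5c stood at 4.12 CPM in members inside cluster 5 and at 121 in members outside it. The part of members outside the cluster in the library difference was not tested. Adam12, a metalloprotease, ranged from 3.22 to 7.79 CPM against 34.3 to 45.6, Golm1 from 2.66 to 5.63 against 23.8 to 40.2 and Mas1, the receptor of angiotensin 1-7, from 1.60 to 5.63 against 18.7 to 26.5. Il6ra, the interleukin 6 receptor, had 0 UMIs in members of the wild-type library and at most 1.61 CPM elsewhere, against 9.56 to 13.5.

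Marker lists of hippocampal and neighbouring cell types gave a mixed picture. Counts over these and the following lists stand beside 2.21% of all genes compared that were higher and 2.39% that were lower in all 4 libraries, or 3.51% and 5.13% in cluster 5. Of 6 dentate granule markers, 0 were higher and 4 lower in all 4 libraries, with median log2 ratios between -3.32 and -1.30. Prox1 stood at 10.2, 20.9, 23.3 and 3.19 CPM against 62.7 to 70.5. Of 6 CA1 markers, 2 were higher, Pou3f1 among them, and Fibcd1 was lower. Pou3f1, a POU domain factor, stood at 58.4, 47.5, 49.9 and 44.2 CPM against 18.1 to 19.1, while Man1a (249 to 305 CPM against 278 to 299) and Mpped1 (101 to 126 against 95.8 to 106) differed little. Of 4 CA3 markers compared, Nectin3, Tspan18 and Trps1 were lower. Of 4 subicular markers compared, 2 were higher: Slc17a6 at 117, 98.8, 90.9 and 116 CPM against 11.8 to 24.6, and Tshz2, a zinc finger factor, at 1791, 1909, 1939 and 2133 against 360 to 516. The other subicular markers did not go with them, since Fn1 stood at 2.29 CPM and Cntn6 at 43.8 CPM in members inside cluster 5, against 25.6 and 156 in other excitatory nuclei outside it.

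Lists of cortical markers were read in the same way. Among 7 superficial cortical markers compared, Cux2 was higher and Calb1 lower, and Rasgrf2 (157 to 185 CPM against 88.1 to 110) and Cux1 (133 to 182 against 60.4 to 90.05) did not pass 2-fold in all 4 libraries. Of 7 deep cortical markers compared, 5 were lower, among them Bcl11b at 29.2, 67.6, 66.0 and 20.2 CPM against 187 to 204 and Hs3st4 at 146, 280, 399 and 92.7 against 859 to 1078. Of 5 markers of entorhinal layer 2 compared, 3 were lower, and Reln, which was not, ranged from 1.60 to 45.9 CPM over the libraries. In cluster 5 the counts were wider: 6 of 6 dentate, 4 of 4 CA3, 6 of 7 deep cortical and 5 of 5 entorhinal layer 2 markers were lower, while 3 of 5 middle cortical markers (Scnn1a, Whrn and Plcxd2) were higher and Il1rapl2 was lower. Of the 7 superficial markers, Cux2 and Pou3f2 were higher there and Rfx3 and Calb1 lower. The median log2 ratio of the deep cortical list lay between -2.58 and -1.39, that of the superficial list between 0.68 and 1.01, and that of the subicular list between 0.33 and 1.04.

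Markers of cells outside the excitatory lineage were summed for members and other excitatory nuclei. The summed CPM of 6 microglial markers was 34.4 to 53.0 in members and 40.5 to 55.6 in the other excitatory nuclei, and that of 6 vascular markers 0.805 to 3.89 and 4.38 to 6.49, with Vtn at 0 in every member. The oligodendrocyte sum was 238, 302, 130 and 163 CPM in members against 265, 357, 185 and 194, and Mbp alone stood at 105, 106, 82.9 and 103 CPM in members. The astrocyte sum was higher in members, at 548, 454, 451 and 531 CPM against 272, 250.3, 238 and 252. Of that list only Slc4a4, a bicarbonate transporter, was abundant, at 441 to 528 CPM in members and 619 CPM in those inside cluster 5, where Aqp4 and Gfap were at 0.458 CPM each. The inhibitory sum was 186, 307, 122 and 108 CPM in members against 537, 639, 365 and 442. Of its genes, Adarb2 stood at 78.3, 213, 110.2 and 86.3 CPM in members against 318.7 to 488, and at 61.6 CPM in members inside cluster 5. Erbb4 stood at 91.0, 78.3, 4.02 and 12.2 CPM in members against 29.9, 125, 28.3 and 16.5, so that in wild type the members were the higher class, and at 11.0 CPM in members inside cluster 5. The part of doublets or free RNA in these levels was not tested.

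Of 42 transcription factors compared, 7 were higher and 11 lower in all 4 libraries, and the list's median log2 ratio lay between -0.40 and -0.27. Among the 7 were Cux2, Meis2, Pou3f1, Tshz2, Tshz3 and Ldb2. Tshz3 stood at 512, 375, 540 and 484 CPM against 100 to 129, and Meis2, a homeobox factor, at 526, 386, 467 and 510 against 150 to 188. Among those lower, Zbtb20, a repressor that specifies hippocampal pyramidal and granule neurons, stood at 371, 630, 835 and 116 CPM against 2054 to 2917, and at 77.7 CPM in members inside cluster 5. Zeb2 stood at 147, 289, 299 and 69.2 CPM against 789 to 979, Nfia at 62.8, 102, 84.5 and 29.3 against 307 to 335, and Lmo3 at 16.5, 45.5, 47.5 and 12.2 against 145 to 164. Inside cluster 5, Lmo3 was close to absent at 0.687 CPM and Zeb2 at 12.6 CPM.

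Of 51 guidance and adhesion genes compared, 3 were higher and 5 lower, with a median log2 ratio between -0.72 and -0.27. Cdh20, a cadherin, stood at 621, 535, 497 and 679 CPM against 71.5 to 128, and Cntn5, a contactin, at 3618, 3226, 3227 and 3675 against 798 to 1116. Unc5d, a netrin receptor, was the third, at 1207, 952, 781 and 1148 CPM against 333 to 476. The 5 lower genes were Cdh9, Sema3e, Sema5a, Robo1 and Tenm1. In cluster 5 the count of lower genes was 20, with the netrin receptor Dcc among them at 41.2 CPM in members against 1878 in other excitatory nuclei outside.

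Of 22 glutamate receptor genes compared, Grm3 and Grm4 were higher and 2 were lower, Gria1 among them. Grm3, which couples to Gi proteins, stood at 613, 526, 292 and 526 CPM against 226, 242, 102 and 195, and Grm4 at 35.4 to 50.1 against 8.40 to 11.6. Gria1, the AMPA receptor subunit GluA1, stood at 387, 700, 884 and 276 CPM against 1946 to 2620.5, and at 144 CPM in members inside cluster 5, where Gria4 stood at 1410.2 CPM. Of 14 GABA receptor genes, 2 were higher, Gabrg1 among them, and 0 were lower. Of 26 potassium channel genes, Kcnh5 (148 to 258 CPM against 48.6 to 76.1) and Kcnk2 (224 to 254 against 69.2 to 83.8) were higher and Kcnc2 lower, against 2.21% and 2.39% of all genes. Of 34 synaptic genes, 0 differed by 2-fold in all 4 libraries, a count near the same background of 2.21% and 2.39%, and their median log2 ratio lay between -0.07 and 0.00.

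Of 23 receptors for neuromodulators compared, 6 were higher and 5 lower, with a median log2 ratio between -0.13 and 0.20. Chrm2, a muscarinic receptor, stood at 213, 173, 203 and 215 CPM against 32.9 to 47.4, while Chrm3, another muscarinic receptor, stood at 235, 305, 327 and 167 against 788 to 931. Inside cluster 5 they were at 248 and 44.2 CPM. Oprd1, the delta opioid receptor, stood at 36.1 to 41.4 CPM against 8.85 to 12.9, Crhr1, a receptor of corticotropin-releasing hormone, at 37.0 to 61.8 against 17.8 to 20.0, Htr7, a serotonin receptor, at 27.4 to 56.4 against 13.6 to 17.8, and the tachykinin receptor Tacr1 at 6.39 to 14.5 against 1.25 to 3.29. The lower genes were Npy2r, Htr1f, Htr2a, Chrm3 and Adra1a.

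Relatives of rule genes were also listed. Of 11 lipid flippase genes compared, Atp10a was higher, at 64.7, 50.4, 53.9 and 55.4 CPM against 13.2 to 24.1. Of 5 desmosomal genes compared, the desmosomal cadherins Dsc2 (12.2 to 17.7 CPM against 1.25 to 2.21) and Dsg2 (32.6 to 49.1 against 10.6 to 15.7) were higher. The plaque genes Pkp2 and Dsp were lower, with Pkp2 at 7.99 to 30.6 CPM against 93.2 to 149.

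Of 14 genes of the endocannabinoid list compared, 0 were higher and 1 was lower, with a median log2 ratio between -0.33 and -0.18. Mgll stood at 102, 79.5, 105 and 99.6 CPM in members and at 103, 78.8, 107 and 107 in the other excitatory nuclei. Its log2 ratio to wild type in members was -0.36 in the total knockout, 0.05 in the astrocyte knockout and -0.04 in the neuron knockout. RNA of Mgll was thus counted in every knockout library. Since the deleted part of the gene is not stated in the labels, this level does not check the labels. Plcb1, the phospholipase C isoform of this list with the highest level, was even at 1316, 1349, 1311 and 1339 CPM. The receptor Cnr1 stood at 32.1, 38.5, 42.6 and 23.4 CPM against 52.7 to 63.5, and the 2-AG synthase gene Dagla at 49.6, 60.2, 82.9 and 55.4 against 83.7 to 102.

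Clusters were called enriched where the share of members was at least 5 times that of all excitatory nuclei. Among the other clusters of at least 200 nuclei, those closest to the members of cluster 5 were clusters 9, 10 and 13. Pearson's r was 0.958, 0.957 and 0.952 over the log2 levels of 17254 genes in the pooled libraries. Members still made up 5.05% of cluster 10, above the 2.45% of all excitatory nuclei. Levels given below are those of all members, not only of those in cluster 5. The genes named here were chosen after their values were seen. Cluster 9 was led by Rorb and Col26a1, and members held 18.6 CPM of Rorb against 496 in that cluster, but 523 CPM of Rmst against 35.2 and 209 CPM of Rspo2 against 11.3. Cluster 10 held 226 CPM of Wfs1 and 105 CPM of Prlr, against 14.7 and 10.8 in members, which held 222 CPM of Kcnh5 against 9.85. Cluster 13 held 1097 CPM of Zfp804b and 212 CPM of Hs3st2, against 112 and 10.1 in members. Several genes high in members were not particular to them. Cux2 and Kcnh5 were also among the leading genes of cluster 9. Chrm2, Slc17a6 and Bmper were among those of cluster 29, with r at 0.952, and Rmst led cluster 11, with r at 0.937.

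Each knockout library was then compared with wild type within the members. All 3 comparisons share the wild-type library. Of 7808 genes compared, 68 (0.871%) were at least 2-fold higher and 28 (0.359%) at least 2-fold lower in the total knockout, 90 (1.15%) and 82 (1.05%) in the astrocyte knockout, and 27 (0.346%) and 72 (0.922%) in the neuron knockout. With called doublets removed, and 6498 genes compared, the counts were 16 higher and 31 lower in the total knockout. They were 35 and 57 in the astrocyte knockout and 17 and 39 in the neuron knockout. In the total and astrocyte knockouts the lower genes were then the more numerous. In male members alone, with 5774 genes compared, the counts were 139 and 26, 139 and 130, and 57 and 72 in the same order of knockouts. In the other excitatory nuclei, which are far more numerous, the same 7808 genes gave 9 (0.115%) and 6 (0.0768%) in the total knockout, 0 and 24 (0.307%) in the astrocyte knockout, and 3 (0.0384%) and 7 (0.0897%) in the neuron knockout. The members' log2 ratios spread more widely, with 0.757, 0.874 and 0.773 between the 10th and 90th percentiles against 0.406, 0.475 and 0.406. In all nuclei of cluster 5, with 9536 genes compared, 34 (0.357%) and 54 (0.566%) genes passed 2-fold in the total knockout, 32 (0.336%) and 60 (0.629%) in the astrocyte knockout and 36 (0.378%) and 51 (0.535%) in the neuron knockout.

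Genes higher in the total and astrocyte knockouts were mostly more abundant in other excitatory nuclei than in members. Of the 68 genes higher in the total knockout, 62 (91.2%) were genes with higher levels in other excitatory nuclei than in members, as were 81 of 90 (90%) in the astrocyte knockout and 46 of 72 (63.9%) of those lower in the neuron knockout, against 54.9% of all genes compared. In the remaining directions the share was below that of all genes, at 10 of 28 (35.7%) of those lower in the total knockout, 33 of 82 (40.2%) of those lower in the astrocyte knockout and 13 of 27 (48.1%) of those higher in the neuron knockout. Of the 68, 21 also passed 2-fold in that direction in cluster 5, as did 15 of the 90, 20 of the 72, 9 of the 28, 9 of the 82 and 3 of the 27. In the members inside cluster 5, which are a subset of the same nuclei, the tallies were 41 of the 68, 43 of the 90, 41 of the 72, 16 of the 28, 34 of the 82 and 18 of the 27. Cdh9, a cadherin, stood at 34.1, 111, 124 and 20.8 CPM in members, a log2 ratio of 1.69 (1.32 to 2.11) in the total and 1.85 (1.45 to 2.29) in the astrocyte knockout. In cluster 5 it stood at 8.22, 14.3, 4.76 and 8.96 CPM. Gria1 had log2 ratios of 0.85, 1.19 and -0.49 in members and of 0.49, 0.72 and -0.22 in cluster 5, where it stood at 119, 166, 196 and 102 CPM. Zbtb20 turned around: its log2 ratio in the astrocyte knockout was 1.17 in members and -1.61 in cluster 5, at 124, 120, 40.2 and 36.8 CPM. Of 285 genes on the lists that were compared, 19 (6.67%) in the total, 27 (9.47%) in the astrocyte and 11 (3.86%) in the neuron knockout passed 2-fold in members in either direction, against 1.23%, 2.20% and 1.27% of all genes compared. Of these, 6, 7 and 3 did so in cluster 5 in the same direction, and 10, 8 and 4 in the members inside it.

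A smaller set of differences was as large, or nearly so, in cluster 5. Spock1, a secreted proteoglycan, stood at 373, 330, 390 and 94.8 CPM in members and at 380, 373, 383 and 80.1 in cluster 5. Its log2 ratio in the neuron knockout was -1.97 (-2.22 to -1.74) in members, -2.24 (-2.42 to -2.07) in cluster 5 and -2.05 in the other excitatory nuclei. The neuron knockout alone was low, by a similar amount in every class. In male nuclei alone the members' ratio was -1.28. Ide, the insulin-degrading enzyme, stood at 56.0, 107, 81.3 and 109 CPM, with log2 ratios of 0.93 (0.61 to 1.26) in the total and 0.95 (0.62 to 1.30) in the neuron knockout, 0.85 and 0.92 in cluster 5, and 1.09 and 1.06 in the other excitatory nuclei. Btaf1, a regulator of TATA-binding protein, stood at 194, 281, 263 and 334 CPM, a log2 ratio of 0.78 (0.60 to 0.97) in the neuron knockout and 0.90 in cluster 5. Both genes lie on chromosome 19, Btaf1 at 36926079 to 37012752 and Ide at 37268743 to 37337852 (mm10).

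Among genes at least as high in members as in other barcodes, the 10 lowest in the neuron knockout also included Hspa8 and Hsp90aa1. Hspa8, a constitutive heat shock chaperone, stood at 251, 168, 132 and 111 CPM, with a log2 ratio of -1.18 (-1.42 to -0.95) in members, -1.13 in cluster 5, -0.99 in the other excitatory nuclei and -0.89 in male members. Hsp90aa1 stood at 220, 189, 138 and 110 CPM, with -0.996 (-1.24 to -0.76) in members, -1.01 in cluster 5 and -0.79 in the other excitatory nuclei. For both, wild type was the highest library and the neuron knockout the lowest. Aldoa, Nefl, Fau, Rps23, Rpl24 and Calm3 were also among these 10, with log2 ratios between -1.11 and -0.93, and between -1.002 and -0.58 in cluster 5. In male members Aldoa was at -0.70 (-1.24 to -0.17), Nefl at -1.05 (-1.98 to -0.22) and Rps23 at -1.07 (-1.97 to -0.26). Fau at -0.63 (-1.46 to 0.17), Rpl24 at -0.57 (-1.49 to 0.32) and Calm3 at -0.86 (-1.81 to 0.004) had intervals that span 0. Among the 10 highest under the same limit were the immediate early genes Egr3, at 19.5, 31.6, 18.5 and 36.7 CPM with a log2 ratio of 0.90 (0.33 to 1.52), and Fosl2, at 21.4, 20.5, 21.7 and 37.3 with 0.79 (0.24 to 1.38). Their ratios in cluster 5 were 0.89 and 0.81. Coro6, an actin-binding coronin, stood at 39.4, 42.2, 45.1 and 71.9 CPM, with 0.86 (0.46 to 1.28) in members, 1.02 in cluster 5 and 0.45 (-0.19 to 1.16) in male members, an interval that spans 0.

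In the astrocyte knockout, the receptor gene Grm3 was low, with 292 CPM against 526 to 613 in the other libraries and a log2 ratio of -1.07 (-1.24 to -0.90). It was -0.90 in cluster 5 and -1.15 in the other excitatory nuclei. Lama4 had a log2 ratio of -1.25 (-1.82 to -0.76) in members, -1.11 in cluster 5, -2.07 in male members and -2.00 in the other excitatory nuclei. Msmo1, an enzyme of cholesterol synthesis, stood at 47.2, 41.0, 22.5 and 35.1 CPM, with -1.03 (-1.73 to -0.45) in members, -1.08 in cluster 5 and -1.76 in male members. Among genes at least as high in members as in other barcodes, Rab3b, a vesicle-associated GTPase, had the lowest ratio, at 45.3, 35.2, 12.1 and 37.3 CPM, with -1.83 (-2.80 to -1.11) in members, -0.98 in cluster 5, -1.69 in the members inside it and -0.53 in the other excitatory nuclei. Vgf, a secreted neuropeptide precursor, had a ratio of -1.02 in members, -1.24 in members inside cluster 5, where the astrocyte knockout held 7 UMIs, and 0.06 in all of cluster 5. In male members it was -0.27 (-1.25 to 0.58), an interval that spans 0. Under the same limit the highest genes of this library, led by Gm41414, Per3 and Cacna1g, had log2 ratios of at most 0.70.

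Of 13 immediate early genes compared, 1 (Egr1) was at least 2-fold lower in the astrocyte knockout and 0 were higher, beside 1.05% and 1.15% of all genes, so these counts do not set the list apart. The list had a median log2 ratio of -0.67 against -0.01 over all genes. The same list had a median of -0.69 in the other excitatory nuclei of that library. Egr1 stood at 46.2, 57.0, 21.7 and 51.1 CPM, a log2 ratio of -1.05 (-1.76 to -0.46) in members and -0.45 (-0.88 to -0.06) in cluster 5. In the members inside that cluster it was -1.30, with 12 UMIs in the astrocyte knockout. The list medians were -0.07 in the total and -0.06 in the neuron knockout. Medians of the synaptic list lay between 0.01 and 0.07 in the 3 knockouts, and 0 of its 34 genes passed 2-fold, where between 0.346% and 1.15% of all genes did so in 1 direction.

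Among genes at least as high in members as in other barcodes, the highest ratios in the total knockout were those of Plscr4 and Dcbld1, with Ide next. Plscr4, a phospholipid scramblase, stood at 17.5, 38.9, 31.4 and 31.9 CPM, with log2 ratios of 1.13 (0.58 to 1.75) in members and 0.74 (0.33 to 1.18) in cluster 5. Dcbld1, a transmembrane protein, stood at 16.5, 33.6, 31.4 and 36.7 CPM. In male nuclei alone the log2 ratios of Plscr4, Dcbld1 and Ide were 1.81 (0.88 to 3.34), 0.35 (-0.34 to 1.21) and 0.77 (0.33 to 1.30). The interval of Dcbld1 spans 0. The lowest protein-coding genes were Lrrc41, at 33.6, 14.8, 16.9 and 25.03 CPM with a log2 ratio of -1.17 (-1.81 to -0.58), and Unc50, with -0.999. Their ratios were -0.52 and -0.72 in cluster 5 and -1.18 and -1.04 in the members inside it.

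Across all 3 knockout libraries at once, 4 genes (0.0512%) were at least 2-fold higher than in wild type and 2 (0.0256%) at least 2-fold lower, against 0 and 0 in the other excitatory nuclei. The wild-type library is the common term here, so a value peculiar to it moves all 3. All 6 genes had lower mean levels in members than in other barcodes, and they are named here after their values were seen. Higher were Adamts2, a procollagen protease, at 3.41, 22.1, 32.2 and 14.9 CPM, the transmembrane collagen gene Col25a1 at 9.73, 36.9, 43.5 and 20.8, the fibronectin gene Fn1 at 6.33, 24.2, 15.3 and 18.1, and Lin28b, an RNA-binding regulator of let-7, at 9.25, 28.3, 20.9 and 21.3. Their log2 ratios lay between 1.06 and 3.08. Lower were Grik1, a kainate receptor subunit, at 66.2, 21.7, 28.2 and 18.6 CPM, and Ptgds, a prostaglandin D synthase, at 34.5, 16.4, 7.24 and 4.26. In cluster 5 the levels were lower in every library and the differences were not the same. There Adamts2 stood at 0.567, 1.08, 5.19 and 0.498 CPM, Col25a1 at 7.37, 12.1, 16.0 and 6.97, Fn1 at 1.13, 2.15, 2.59 and 1.24 and Lin28b at 7.37, 7.81, 8.22 and 9.21. Grik1 stood at 5.39, 11.3, 10.4 and 4.98 CPM there, with log2 ratios of 1.03, 0.93 and -0.12. Ptgds stood at 2.55, 1.08, 0.432 and 0.249 CPM in cluster 5, from 9, 4, 1 and 1 UMIs, and had at most 1 UMI per library in the members inside it, too few for a ratio. In the other excitatory nuclei its log2 ratios were 0.51, -1.86 and -2.13.

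Among genes at least as high in members as in other barcodes, those with the widest gaps between wild type and all 3 knockouts included Dcbld1. It had log2 ratios of 1.00, 0.92 and 1.13 in the total, astrocyte and neuron knockouts, 0.94, 0.89 and 0.93 in cluster 5, and 0.08, 0.10 and 0.15 in the other excitatory nuclei. In male members it was at 0.35 (-0.34 to 1.21) in the total and 0.67 (-0.12 to 1.58) in the neuron knockout, intervals that span 0. Its level in wild type was 16.5 CPM in members and 24.97 CPM in the other excitatory nuclei. Rnf207, a RING finger gene, stood at 6.81, 13.5, 16.1 and 17.6 CPM from 14 to 33 UMIs in a library. Its log2 ratios were 0.90, 1.23 and 0.98 in cluster 5 and 0.53, 0.58 and 0.60 in the other excitatory nuclei. In wild-type members it lay below its mean of 7.84 CPM in other barcodes, so it passed that mean only in the knockout libraries. The other excitatory nuclei of wild type held 6.07 CPM. Polr3g (11.2, 21.7, 21.7 and 24.0 CPM) and Zbtb17 (8.27, 15.2, 18.5 and 16.5 CPM) rested on counts of similar size, and their log2 ratios lay between 0.06 and 0.39 in cluster 5 and between 0.84 and 1.60 in the members inside it, from 9 to 29 UMIs in a library. In wild type Polr3g and Zbtb17, like Dcbld1, were lower in members than in the other excitatory nuclei, which held 13.9 and 14.6 CPM, so they met the limit on levels only through the knockout libraries. On the lower side were Gm43948, Plekhb2, Pik3r4 and Aasdhppt. Gm43948 stood at 32.1, 17.2, 12.9 and 12.8 CPM, with log2 ratios of -0.89, -1.25 and -1.29 in members and of -0.68, -0.25 (-0.69 to 0.17) and -0.91 in cluster 5, where the interval of the astrocyte knockout spans 0. Plekhb2, an endosomal protein, stood at 42.8, 22.9, 21.7 and 24.5 CPM, with -0.55, -0.77 and -0.51 in cluster 5. Its mean level in other barcodes was 24.7 CPM. Pik3r4 stood at 33.1, 19.3, 15.3 and 19.7 CPM in members, against a mean of 21.6 in other barcodes. Both genes thus met the limit on levels only through the wild-type library, where they were high. Aasdhppt, at 25.8, 15.6, 13.7 and 12.2 CPM against 14.9, was above other barcodes only in wild type and the total knockout.

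**Figure D5:**
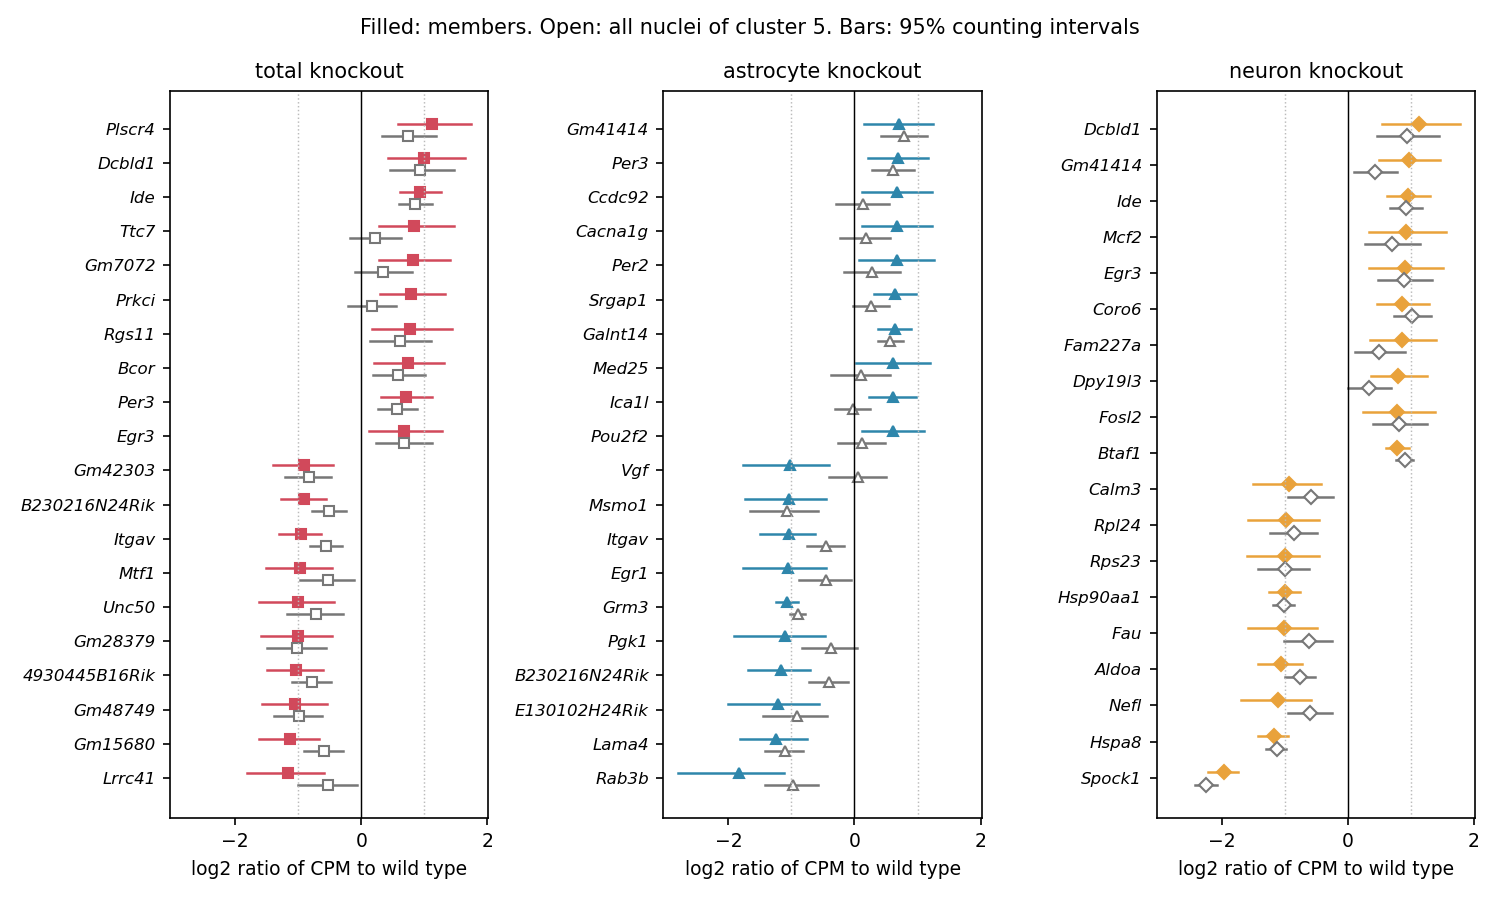
Log2 ratio of CPM to wild type, with 95% counting intervals, in members (filled) and in all nuclei of cluster 5 (open, grey), for genes among the 10 highest and 10 lowest of each knockout library among genes with mean levels in members at least as high as outside; dotted lines mark 2-fold. Spock1 in the neuron knockout (-1.97 and -2.24) has the lowest ratio of all genes shown, and Vgf in the astrocyte knockout (-1.02 and 0.06) is the gene with the widest gap between both values.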

How the data were processed

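The authors deposited, for each of 4 libraries, unnormalized whole-number UMI counts for every gene in every barcode. Counting used Cell Ranger ARC 2.0.0 and the mm10 build, per the submitters' processing notes, and nuclei were isolated over iodixanol, per the labels' protocols. The 4 tables shared 20211 gene symbols, and only these were used; 19830 of them (98.1%) were found in GENCODE M21. The rule's members and all gene lists were chosen with earlier results of these data known.

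CPM were computed from UMIs added up over the nuclei of a class in a library. Sums, ratios and shares carry exact Poisson, conditional binomial and Clopper-Pearson intervals (95%). Log2 ratios used a pseudocount of 1 and genes with at least 100 UMIs, with a CPM of at least 10 in the higher class for members against others. Named were the 25 highest and 10 lowest genes of members against others by the weakest library (rule genes left out), per knockout the 10 highest and 10 lowest among genes at least as high in members as in other barcodes (sex-linked and mitochondrial genes left out), the 5 widest gaps between wild type and all knockouts in each direction, and list genes past 2-fold.

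Excitatory barcodes were clustered with scanpy 1.11.5 and leidenalg 0.10.2 (2000 variable genes without rule, sex and mitochondrial genes and Mgll, 30 components, 15 neighbours, resolution 1). Scrublet ran per library at 0.8% per 1000 barcodes, and called doublets were kept. On Poisson counts simulated at the members' pooled levels, 91% to 100% of 3-fold changes passed 2-fold. These counts held no doublets and no differences between nuclei, so they do not check the calls in the deposited counts. Chromatin data were not used here. Some genes that the naming rule covers are not reported here.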

Additional observations from a re-analysis of the deposited data

How the results depend on the processing

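No paired analysis was possible because each genotype has 1 library. Libraries are given in the order wild type, total, astrocyte and neuron knockout. The share of members was 1.25%, 0.680%, 0.529% and 1.19% with at least 4 rule genes, 2.39%, 1.54%, 1.32% and 2.58% without Igfbp7, 2.66%, 1.39%, 1.40% and 3.09% in clusters enriched for members, and 0.148%, 0.289%, 0.258% and 0.207% at 2000 UMIs per nucleus, where the order of the libraries was another. With doublets removed the total knockout share was 1.64%. Thinning to 5000 UMIs (1.51%, 1.16%, 0.971% and 1.63%), the whole of cluster 5 (6.95%, 4.80%, 5.55% and 9.39%) and its members alone were alternatives chosen after seeing the data. Against other excitatory nuclei, genes higher numbered 933 at 2000 UMIs, 327 in cluster 5 and 442 at 1.5-fold, and genes lower 94, 479 and 487, with 409 after removing doublets and 369 in enriched clusters. The counts at 2000 UMIs rest on 40 members, 4 of them in wild type. The weight of the pseudocount of 1 in such small sums was not tested. Leaving out each library in turn gave 212 to 281 higher and 222 to 305 lower.

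Counts of genes past 2-fold in knockouts moved by over 1.5 times in 46 of 90 combinations of count and setting, 15 settings for each of 6 counts. These are counts and not shares, and the settings compared unlike numbers of genes. Against 7808 in the main setting, 4359 genes were compared with at least 4 rule genes, 6498 without doublets and 396 at 2000 UMIs. The numbers were 5774 in male nuclei, 6481 in enriched clusters, 5781 in members of cluster 5 and 9536 in all of cluster 5. They were 12454 and 3281 at minimums of 20 and 400 UMIs per gene. The lower genes moved least often, under 6 settings in the total and 5 in the astrocyte knockout. The scaling, the pseudocount and leaving out Igfbp7 moved none of the 6 counts. The limit on mitochondrial UMIs kept all 813 members, so its 6 counts were fixed in advance. In the total knockout, higher genes numbered 20 with at least 4 rule genes, 16 without doublets, 11 at 2000 UMIs, 139 in male nuclei, 23 in members of cluster 5, 34 in all of cluster 5, 357 and 16 at minimums of 20 and 400 UMIs per gene, and 331 at 1.5-fold. Its lower genes numbered 11 with at least 4 rule genes, 4 at 2000 UMIs, 54 in all of cluster 5, 370 and 3 at those minimums, and 243 at 1.5-fold. In the astrocyte knockout, higher genes numbered 34, 35, 14, 139, 24, 32, 465, 24 and 398 under the 9 settings of the first series, and 42 in enriched clusters. Its lower genes numbered 13 at 2000 UMIs, 130 in male nuclei, 477 and 8 at those minimums, and 434 at 1.5-fold. In the neuron knockout, higher genes numbered 11 with at least 4 rule genes, 17 without doublets, 15 at 2000 UMIs, 14 in enriched clusters, 57 in male nuclei, 15 in members of cluster 5, 274 and 0 at those minimums, and 233 at 1.5-fold. Its lower genes numbered 45 with at least 4 rule genes, 39 without doublets, 17 at 2000 UMIs, 28 in members of cluster 5, 471 and 16 at those minimums, and 401 at 1.5-fold.

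At 2000 UMIs the weakest log2 ratio against other nuclei changed sign for Il6ra (1.12) and 2600014E21Rik (0.77). So did the ratios to wild type of Lrrc41 (0.11) and 4930445B16Rik (0.26) in the total, E130102H24Rik (0.70) and Itgav (0.11) in the astrocyte and Nefl (0.0586) in the neuron knockout. In the astrocyte knockout Pgk1 was at 0.0278 with at least 4 rule genes and Vgf at 0.0587 in cluster 5. Thinning to 2000 UMIs left 40 members. The cause of these changes was not tested.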
